A study of Mus musculus with 20 samples.

Results

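The 9 genes described here mark the basal cell of the mouse trachea and the structures that hold it in place: Trp63, Ngfr and Pdpn as identity genes, Itga6, Itgb4 and Col17a1 as hemidesmosome components, Lama3 and Lamb3 as subunits of the laminin beneath the cell, and Dsg3 as a desmosomal cadherin. Their probes were taken by name, as every probe on the array that carries 1 of these gene names. All 9 genes were found, among 27962 gene names on the array, with 20 of its 41174 probes. Of these 20 probes, 18 passed the filter on dim signals, which kept 26064 probes that stood well above local background on at least 10 of the 20 arrays, and each of the 9 genes kept at least 1 probe. The 2 probes that did not pass were a Trp63 probe that stood above background on 5 arrays and a Dsg3 probe that did so on 1.

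Basal cells sit on the basement membrane of the airway, renew the luminal secretory and ciliated cells and remain when a detergent strips the surface. They are held down by hemidesmosomes, in which the α6β4 integrin and collagen XVII join the keratin cytoskeleton to laminin-332, and they are joined to their neighbours by desmosomes. p63, the product of Trp63, is the transcription factor that marks this lineage in stratified and pseudostratified epithelia.

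Whole trachea was taken from mice aged 4 months in 4 groups of 5. Wild-type mice of the C57/Bl6 strain and Myd88KO mice, which lack the Myd88 adaptor of Toll-like and interleukin-1 receptor signalling in all cells, were either left uninjured or given 2% polidocanol, a detergent that removes the surface epithelium, and collected 3 days later. The labels call the dose intratracheal, while the study's methods describe instillation by the oropharynx. The Myd88KO line had been backcrossed to C57/Bl6 and was bred apart from the wild-type colony, so genotype and colony cannot be told apart. Each trachea was hybridised to 1 one-colour Agilent array, and all levels below are log2 processed signals with the 75th percentile of their array set to 0. As whole tissue was measured, fewer basal cells and less RNA per cell cannot be told apart. The single Myd88 probe stood between 1.94 and 2.28 in uninjured wild-type and between 1.60 and 2.04 in uninjured Myd88KO tracheas (difference -0.21, adjusted p = 1.00, limma), and it was lower in injured Myd88KO than in injured wild-type tracheas by 0.77 (log2 difference -0.77, SE 0.14, adjusted p = 0.00824, limma). Whether this probe lies within the deleted part of Myd88 was not established.

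Between 57.5% and 67.8% of spots stood well above background on each array. The arrays lay on 5 slides, 1 from each group per slide, and slide and replicate numbers match. Slides 2, 3 and 4 were scanned on a first day and slides 1 and 5 on a second. Array replicate 3 of uninjured wild-type stood apart in genes of stratified squamous epithelium, with loricrin (Lor) at 8.65 against -1.51 to 0.21 in the other 4 arrays of its group. Injury changed the surface epithelium in the wild-type tracheas, where 2 of 4 secretory markers were called lower (Scgb1a1 by a log2 difference of -7.91), 1 of 4 ciliated markers was called lower, and 2 of 4 proliferation and 2 of 5 myeloid markers were called higher. In Myd88KO tracheas 1 of 4 secretory markers was called lower and no ciliated, proliferation or myeloid marker was called. The 4 proliferation markers were all higher after injury in both genotypes, with medians of 2.23 in wild-type and 2.41 in Myd88KO (lowest adjusted p in Myd88KO 0.0114, limma), and the 5 myeloid markers were all higher, with medians of 2.57 and 1.71 (lowest adjusted p in Myd88KO 0.0752, limma). The injured wild-type arrays were not alike. Replicates 1 and 5, of the second scan day, held mean ciliated levels of -1.77 and -1.45 against 1.00 to 1.49 in the others. Their mean myeloid levels were 1.77 and 2.64 against 0.35 to 0.73, while their proliferation levels lay within the range of the others. In this group scan day and these marker levels cannot be told apart.

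Injured Myd88KO replicate 5 went against its label in 3 of these 4 marker groups. Its mean secretory marker level was 8.998, where uninjured Myd88KO arrays held 8.30 to 8.91 and the other injured ones 4.76 to 7.42. Its proliferation markers stood at -2.23, within the uninjured range of -3.01 to -1.90 and below the 0.32 to 1.11 of the other injured Myd88KO arrays, and its myeloid markers stood at -2.99, within -3.29 to -1.81 and below -1.74 to 1.16. Its ciliated level was 2.13 against 1.66 to 1.93 in uninjured and -1.60 to 3.58 in the other injured arrays. The array was kept under its label, and the cause was not tested. For the 9 genes the injury comparison in Myd88KO, the one between injured genotypes and that of both responses are also given without it.

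None of the 18 tested probes of the 9 genes was called in any of the 5 comparisons by limma at an adjusted p under 0.01. Over all tested probes 5.26% were called for injury in wild-type, 0.376% for injury in Myd88KO, 0.384% for uninjured Myd88KO against wild-type, 0.38% for injured Myd88KO against wild-type and 0% for the difference between both injury responses. At an unadjusted p under 0.05, injury in wild-type gave 5 of the 18 probes (both bright Itgb4 probes, both Pdpn probes and 1 Ngfr probe) against 26.4% of all probes. The same count was 1 for injury in Myd88KO (19.5% of all probes), 1 for uninjured Myd88KO against wild-type (5.59%), 2 for injured Myd88KO against wild-type (12.5%) and 0 for the difference between responses (10.4%). The methods' one-way test also called none of the 18 after adjustment, and its unadjusted p was under 0.01 for the 2 Pdpn probes in injured wild-type and for no probe elsewhere.

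With the brightest tested probe standing for each gene, 8 of the 9 genes were higher in injured than in uninjured wild-type tracheas, with a median log2 difference of 0.40, and 9 of 9 were higher in injured Myd88KO tracheas, with a median of 0.28. Without injured Myd88KO replicate 5 this was 8 of 9, all but Trp63 (-0.02), with a median of 0.36 and none of the 18 probes called, and 2 probes had an unadjusted p under 0.05: the brightest of Lama3 (1.13, adjusted p = 0.0471, limma) and of Itga6 (0.66, adjusted p = 0.0665). The other 6 genes then lay between 0.24 for Ngfr and 1.27 for Dsg3. Over all tested probes 50% were higher after injury in wild-type and 42.3% in Myd88KO, and the median difference was 0.00 in wild-type (7.88e-05) and -0.07 in Myd88KO. These hold for all arrays, and no such share is given for the fit without injured Myd88KO replicate 5. Uninjured wild-type replicate 3, with high squamous genes, was the highest of its group in each gene but Pdpn. Without it the wild-type differences ran from -0.03 for Trp63 and 0.33 for Col17a1 to 1.17 for Dsg3. Lamb3 then stood at 0.44, Ngfr at 0.48, Itga6 at 0.49 and Lama3 at 0.66. None was called, and no share over all probes is given for that fit either. With all arrays the 95% intervals lay within a log2 difference of ±1 for 5 of the 9 genes in wild-type and for 7 of 9 in Myd88KO, and the widest reached 1.83 and 2.17, both for Dsg3.

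**Figure D1:**
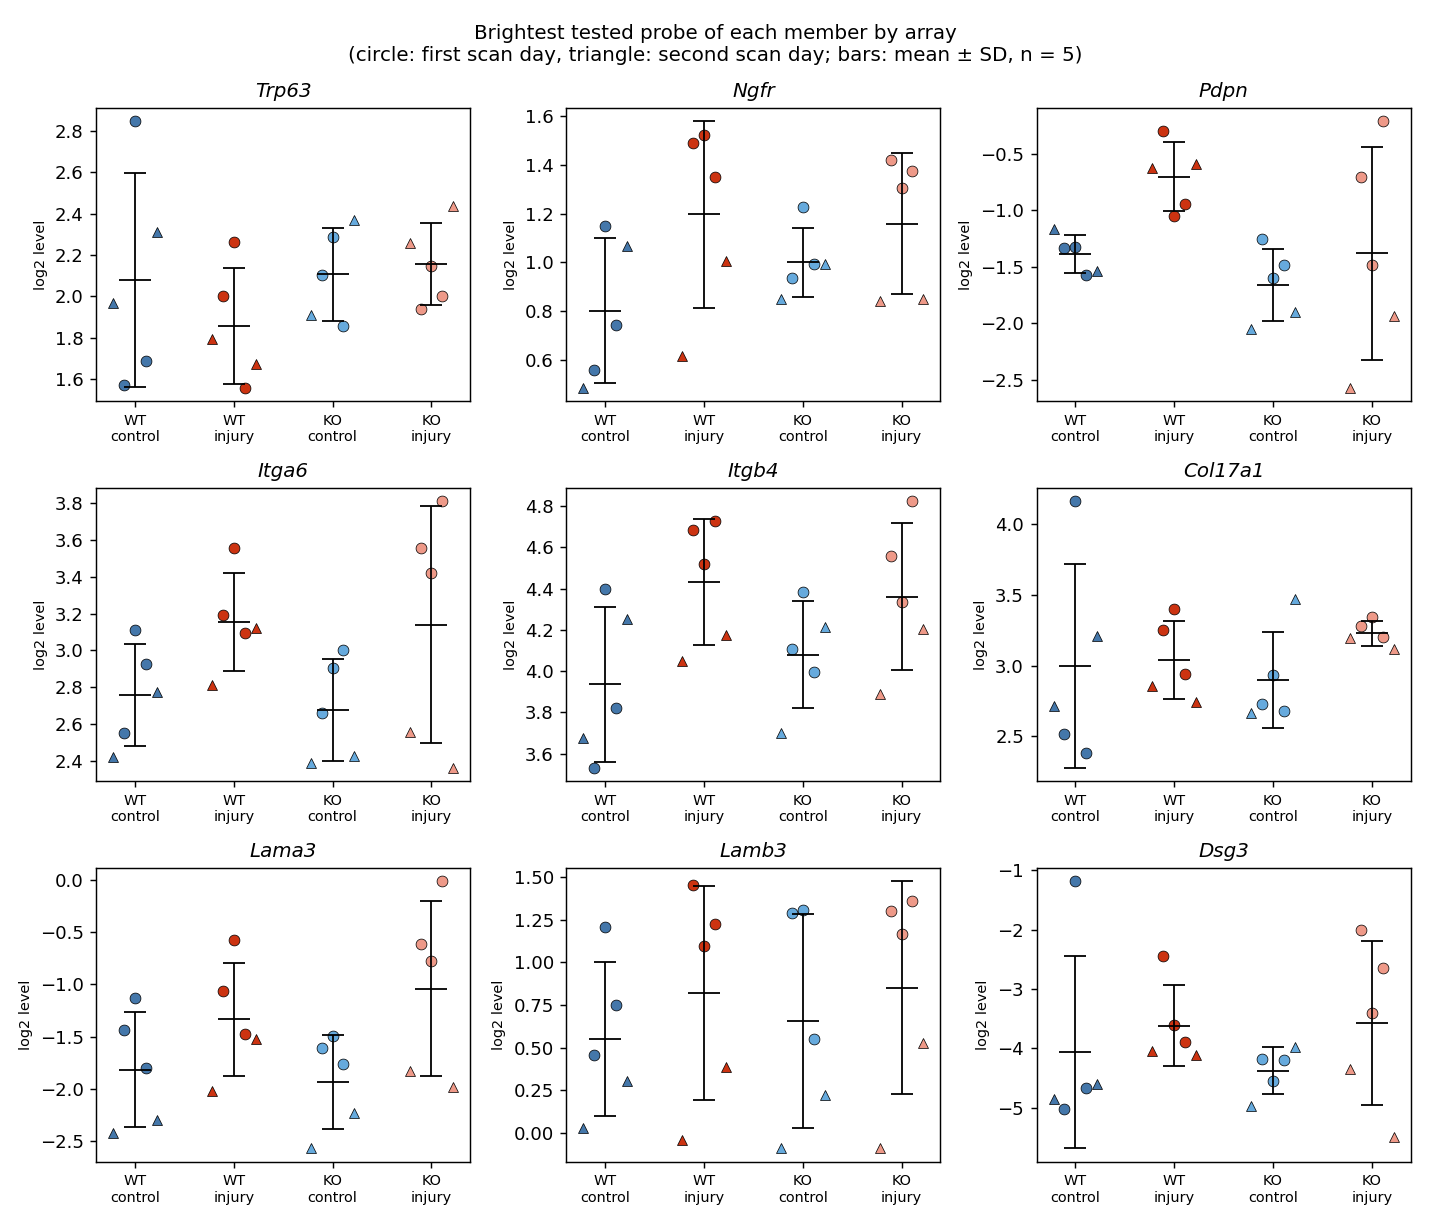
Log2 level of the brightest tested probe of each of the 9 genes on every array (y axis, with the array's 75th percentile at 0), by group (x axis); circles and triangles mark the first and second scan day, and bars give the mean ± SD over 5 arrays. Injured and uninjured wild-type arrays overlap for every gene except Pdpn, and in Lama3 and Lamb3 the triangles lie below the circles in all 4 groups.

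**Figure D2:**
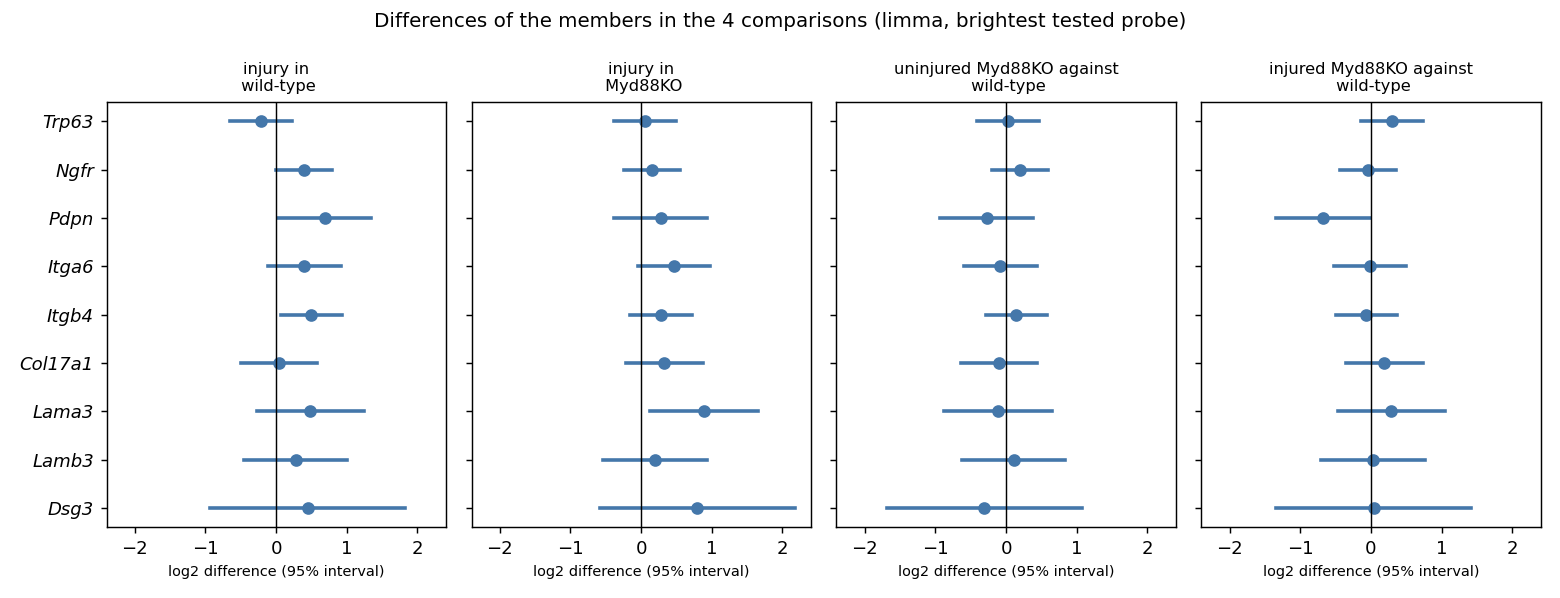
Log2 difference (x axis) with its 95% interval from limma for the brightest tested probe of each gene (rows) in the 4 comparisons between groups. In injured wild-type the intervals of Ngfr, Pdpn and Itgb4 lie above 0, in injured Myd88KO that of Lama3 does, and between injured tracheas that of Pdpn lies below 0 (-1.34 to -0.02), and none of these differences passed the adjusted threshold.

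Trp63 encodes p63, the transcription factor of the basal lineage. Its brightest probe (chr16:25553466-25553525 as the array files give it, for which the build is not stated) read 1.97, 1.57, 2.85, 1.69 and 2.31 in uninjured wild-type replicates 1 to 5 and 1.79, 2.00, 2.26, 1.56 and 1.67 in injured wild-type. In Myd88KO it read 1.91, 2.11, 2.29, 1.86 and 2.37 uninjured and 2.26, 1.94, 2.15, 2.00 and 2.44 injured. All 4 groups overlapped, and the highest value was that of the uninjured wild-type array with high squamous genes. The difference with injury was -0.22 in wild-type (95% interval -0.66 to 0.22, adjusted p = 0.544, limma) and 0.05 in Myd88KO (-0.39 to 0.49, adjusted p = 0.925). Without that array the wild-type difference was -0.03 (-0.41 to 0.36, adjusted p = 0.942, limma). As folds, the intervals with all arrays were 0.63 to 1.16 in wild-type and 0.76 to 1.40 in Myd88KO. A dim second Trp63 probe, above background on 10 arrays, followed the bright one loosely (Pearson's r = 0.39, Spearman's rho = 0.21 over 20 arrays) and differed with injury by -0.37 and -0.24.

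Ngfr encodes the low-affinity p75 neurotrophin receptor that is used to sort tracheal basal cells. Its bright probe, printed 10 times on each array, read 0.48, 0.56, 1.15, 0.74 and 1.07 in uninjured and 0.62, 1.49, 1.52, 1.35 and 1.00 in injured wild-type tracheas. In Myd88KO it read 0.85, 0.94, 1.23, 0.99 and 0.99 uninjured and 0.84, 1.42, 1.31, 1.38 and 0.85 injured. In both genotypes the 3 injured arrays of the first scan day were the highest and the injured arrays of the second day stood at 1.00 or below. The wild-type difference was 0.40 (SE 0.19, adjusted p = 0.188, limma), higher on 4 of 5 slides, and it was 0.64 on the first and 0.03 on the second scan day. In Myd88KO it was 0.16 (95% interval -0.24 to 0.55), with 0.31 and -0.08 on the scan days. Between the days the injured wild-type arrays also differed in ciliated and myeloid markers, and the part of each was not tested. The second Ngfr probe lies nearer the start of the gene and did not follow the first (r = 0.14, rho = 0.14 over 20 arrays), with a wild-type difference of -0.08. Schwann cells also carry this receptor, and their 4 tested markers of 5 held a mean level of -0.45 to -0.03 in uninjured and -0.66 to 0.18 in injured wild-type arrays with none called. Their part in the Ngfr signal was not tested.

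Pdpn encodes podoplanin, a surface mucin-type glycoprotein of basal cells, lymphatic endothelium, alveolar type 1 cells and some fibroblasts. It was the gene of the 9 whose wild-type arrays did not overlap: -1.17, -1.33, -1.32, -1.57 and -1.54 uninjured against -0.63, -0.29, -1.05, -0.94 and -0.59 injured. In Myd88KO the uninjured arrays read -2.05, -1.26, -1.60, -1.49 and -1.90 and the injured arrays spread widely, at -2.57, -0.71, -1.48, -0.21 and -1.94. The injured Myd88KO arrays of the second scan day were 2 of the 3 lowest of all 20 arrays, and replicate 4 was the highest of all. The wild-type difference was 0.69 (SE 0.32, 1.61-fold with a 95% interval of 1.02 to 2.54, adjusted p = 0.172, limma), positive on 5 of 5 slides and 0.65 and 0.74 on the first and second scan days. Injured and uninjured wild-type arrays did not overlap with injured higher for 7.89% of all tested probes. In Myd88KO the difference was 0.28 (-0.39 to 0.94, adjusted p = 0.677), and without injured Myd88KO replicate 4 it was -0.02.

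The second Pdpn probe followed the first closely (r = 0.98, rho = 0.97 over 20 arrays) and gave 0.69 in wild-type (adjusted p = 0.155, limma). With a spread taken from the wild-type arrays alone, the adjusted p of both probes was 0.0219 and 0.0194, and in the methods' one-way test it was 0.0276 and 0.0241, so the distance from the threshold rested partly on the spread of the Myd88KO arrays. Other cells that carry podoplanin were also measured. The 3 lymphatic markers, of which 2 stood above background on all arrays, held a mean level of -2.07 to -1.64 in uninjured and -2.12 to -1.43 in injured wild-type arrays. The 4 alveolar type 1 markers ranged from 0.71 to 1.35 and from 1.14 to 1.74, and the 5 fibroblast markers from 5.09 to 5.75 and from 5.39 to 6.37. No gene of these 3 lists was called for injury in wild-type, and their part in the Pdpn difference was not tested.

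Itga6 and Itgb4 encode the integrin pair through which the hemidesmosome grips laminin. The brightest Itgb4 probe read 3.68, 3.53, 4.40, 3.82 and 4.25 in uninjured and 4.05, 4.69, 4.52, 4.73 and 4.18 in injured wild-type tracheas. The values in Myd88KO were 3.70, 4.11, 4.39, 3.99 and 4.22 uninjured and 3.89, 4.56, 4.33, 4.82 and 4.21 injured. The groups overlapped through uninjured wild-type replicates 3 and 5. Its difference of 0.50 with injury in wild-type (SE 0.21, 95% interval 0.06 to 0.93, adjusted p = 0.127, limma) had the lowest adjusted p of the 18 probes in that comparison, and without uninjured wild-type replicate 3 it was 0.61 (adjusted p = 0.0634). The difference was 0.73 on the first scan day and 0.15 on the second. Injured wild-type arrays differed in ciliated and myeloid markers between these days too. The Itgb4 difference in Myd88KO was 0.28 (-0.15 to 0.71), and a second probe that overlaps the first gave 0.49 and 0.23 (r = 0.99 between the 2 probes over 20 arrays). The third Itgb4 probe, designed to another transcript variant and dim, differed by 0.09 and -0.35.

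The brightest Itga6 probe read 2.42, 2.55, 3.11, 2.93 and 2.78 in uninjured wild-type and 2.81, 3.19, 3.56, 3.09 and 3.12 after injury. In Myd88KO it read 2.38, 2.66, 2.90, 3.00 and 2.42 uninjured and 2.56, 3.56, 3.42, 3.81 and 2.36 injured. In the injured Myd88KO group the 3 arrays of the first scan day exceeded every uninjured array of either genotype, while both arrays of the second day, at 2.56 and 2.36, did not. Injury differences were 0.40 in wild-type (SE 0.25, adjusted p = 0.323, limma), positive on 5 of 5 slides, and 0.47 in Myd88KO (SE 0.25, adjusted p = 0.311), positive on 4 of 5. The second probe gave 0.44 and 0.31. The third probe, designed to a separate cDNA clone, ran against the first (r = -0.28, rho = -0.34 over 20 arrays) and gave -0.09 and 0.24.

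Col17a1, the transmembrane collagen of the hemidesmosome, differed with injury in wild-type by less than its spread between arrays. It read 2.72, 2.52, 4.16, 2.39 and 3.21 in uninjured and 2.86, 3.25, 3.40, 2.94 and 2.74 in injured wild-type tracheas, for a difference of 0.04 (95% interval -0.50 to 0.58, adjusted p = 0.943, limma). The uninjured value of 4.16 belonged to the array with high squamous genes, and without it the difference was 0.33 (-0.08 to 0.74, adjusted p = 0.287). Myd88KO arrays read 2.66, 2.73, 2.93, 2.68 and 3.47 uninjured and 3.19, 3.28, 3.34, 3.20 and 3.12 injured. Of these the injured arrays were the most alike of any group (SD 0.09), and 4 of the 5 uninjured arrays lay below all of them. The difference was 0.33 (-0.21 to 0.87, adjusted p = 0.519, limma). Plec and Dst, which encode the plakins that tie the hemidesmosome to keratin, differed with injury by 0.50 and 0.20 in wild-type and by 0.11 and 0.80 in Myd88KO, and neither was called.

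Lama3 and Lamb3 encode the α3 and β3 chains of laminin-332. Lama3 gave the largest injury difference of the 9 genes in Myd88KO with all arrays, though not without injured replicate 5, where Dsg3 was larger: it read -2.57, -1.61, -1.49, -1.76 and -2.23 uninjured and -1.83, -0.61, -0.77, -0.02 and -1.98 injured. In wild-type it read -2.42, -1.44, -1.13, -1.80 and -2.30 uninjured and -2.02, -1.06, -0.58, -1.48 and -1.52 injured. In all 4 groups the arrays on slides 1 and 5 were the lowest, so the groups overlapped, yet on each of the 5 slides the injured array exceeded the uninjured array of its genotype. These within-slide differences ran from 0.32 to 0.77 in wild-type and from 0.25 to 1.75 in Myd88KO. The group difference was 0.49 in wild-type (SE 0.36, adjusted p = 0.425, limma) and 0.89 in Myd88KO (SE 0.36, 95% interval 0.13 to 1.65, a fold of 1.10 to 3.14, adjusted p = 0.185). A slide term in the fit gave an adjusted p of 0.113 in wild-type and 0.0230 in Myd88KO, and a scan day term gave 0.0956 and 0.0136 (limma), none of them past 0.01.

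Injury was then taken over both genotypes, as 10 injured against 10 uninjured arrays, a comparison added after the values were seen. Lama3 was higher by 0.69 (SE 0.26, adjusted p = 0.0714, limma) and was not called, nor was any other of the 18 probes, with 8.69% of all probes called. With the slide as a block, Lama3 was called (0.69, SE 0.14, 95% interval 0.38 to 1.00, adjusted p = 0.00371, limma), as 1 of the 18 probes against 11.3% of all probes. Under the same block Itga6 (0.43, adjusted p = 0.0222) and Itgb4 (0.39, adjusted p = 0.0314) were short of 0.01, and Trp63 (-0.09, 95% interval -0.34 to 0.17) and Col17a1 (0.18, -0.16 to 0.53) were further from it. The second Lama3 probe lies well upstream along the gene and was above background on 11 arrays. It did not follow the first (r = 0.01, rho = 0.02 over 20 arrays), and under the block its difference was -0.07 (-0.34 to 0.21), so the call rests on 1 probe.

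Lamb3, with 1 probe (chr1:192893546-192896077 in the array files), read 0.03, 0.45, 1.21, 0.75 and 0.30 in uninjured and -0.04, 1.46, 1.10, 1.22 and 0.38 in injured wild-type tracheas. Myd88KO arrays read -0.09, 1.29, 1.31, 0.55 and 0.22 uninjured and -0.09, 1.30, 1.17, 1.36 and 0.53 injured. The injury difference was 0.27 in wild-type (95% interval -0.46 to 1.01) and 0.20 in Myd88KO (-0.54 to 0.93), positive on 3 of 5 slides in each, with adjusted p = 0.665 and 0.805 (limma).

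Both laminin chains and Itga6 differed between the days of scanning. In a comparison added after the values were seen, with the 4 groups in the fit, 4 of the 18 probes were called between the first and the second scan day, against 21.1% of all tested probes. Lamb3 was higher on the first day by 0.94 (SE 0.13, adjusted p = 4.29e-05, limma), with a range of 0.45 to 1.46 over 12 arrays against -0.09 to 0.53 over 8. Lama3 was higher by 0.96 (SE 0.14, adjusted p = 7.70e-05). In both genes each first-day array exceeded each second-day array of its own group in 4 of 4 groups. Itga6 gave the remaining calls, which ran in opposite directions, 0.54 for the brightest probe (adjusted p = 0.00313) and -0.78 for the third probe (adjusted p = 0.00199). Trp63 differed by -0.07 between the days. Every slide held 1 array of each group, so scan day was balanced across the comparisons between groups. Among injured wild-type arrays the ciliated and myeloid levels differed between the days as well, and what else differed was not tested.

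**Figure D3:**
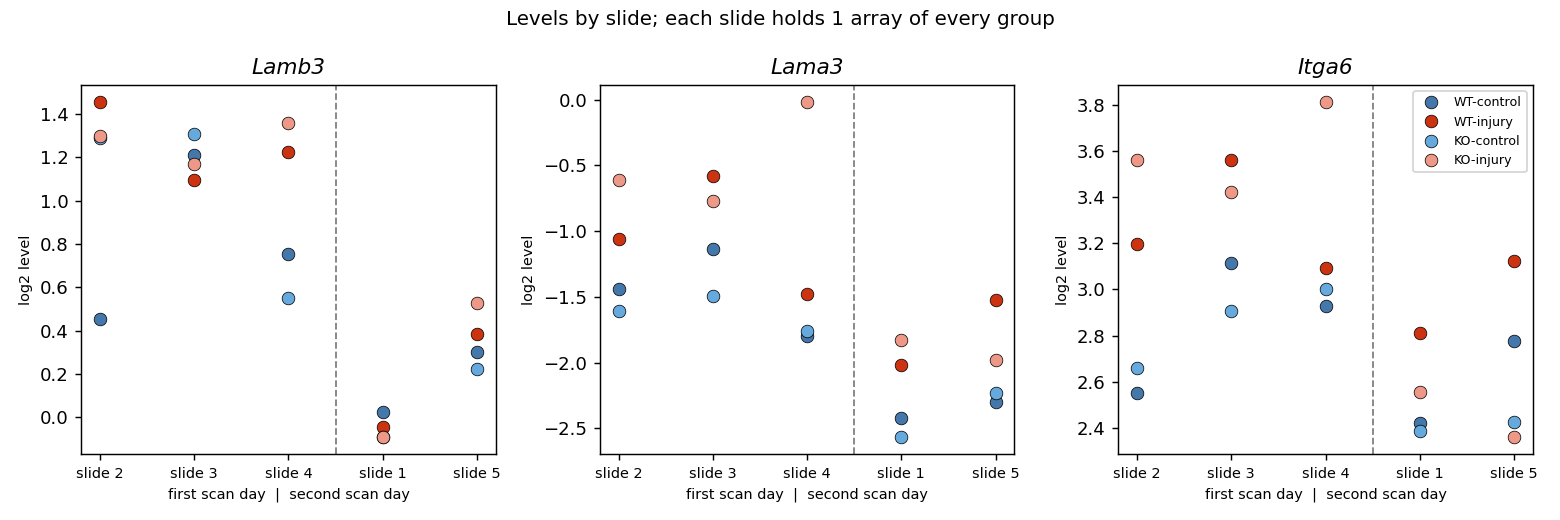
Log2 levels of Lamb3, Lama3 and Itga6 (brightest probe, y axis) by slide (x axis), with the slides of the first scan day left of the dashed line and 1 point for each group on every slide. Lamb3 reached 0.45 to 1.46 on the first day and -0.09 to 0.53 on the second, while the injured arrays of Lama3 stood above the uninjured arrays of their genotype on each slide.

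Dsg3 encodes desmoglein 3, which joins basal keratinocytes to each other. Its tested probe was dim, above background on 1 of 5 uninjured and 5 of 5 injured wild-type arrays and on 3 of 5 uninjured and 4 of 5 injured Myd88KO arrays. It read -4.86, -5.02, -1.19, -4.67 and -4.60 in uninjured and -4.04, -2.45, -3.61, -3.89 and -4.10 in injured wild-type tracheas. The Myd88KO arrays read -4.97, -4.18, -4.55, -4.19 and -3.98 uninjured and -4.34, -2.01, -3.41, -2.64 and -5.50 injured. Apart from uninjured replicate 3, each injured wild-type array exceeded each uninjured one. That holds only with this array set aside, and no share over all tested probes is given beside it. With all arrays the wild-type difference was 0.45 (SE 0.66, 95% interval -0.93 to 1.83, adjusted p = 0.713, limma), and it was -0.08 with a normexp background correction. Without uninjured replicate 3 it was 1.17 (SE 0.51, adjusted p = 0.143, limma), which was not called. The 4 remaining uninjured arrays were not well above background for this probe, so their values do not fix its level. With the lowest signal above background on each array in place of lower values, the injured mean was 2.05-fold higher. This is a point estimate and no lower limit: the 95% interval of the fit without uninjured replicate 3 was 1.07 to 4.72-fold. In Myd88KO the difference was 0.79 (-0.59 to 2.17, adjusted p = 0.545, limma).

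The array that set Dsg3 in uninjured wild-type also held the highest values of the 20 arrays in Col17a1 and Trp63. On it Krt13 read 7.08 against 1.57 to 4.16 on the other 19 arrays and Krt4 read 7.27 against 1.09 to 4.58, keratins of the suprabasal oesophagus, and loricrin of the cornified layer read 8.65 against -2.80 to 4.57. The desmosome genes Dsp (4.94 against 1.76 to 3.19), Pkp1 (5.77 against 1.80 to 3.76) and Dsc2 (1.86 against -2.004 to 0.61) were also highest there, as was Krt5 (7.60 against 5.54 to 7.41). Krt1 was not (-3.27 against -4.16 to -1.96). Of the 6 skin and oesophagus markers 5 were tested, and their mean level was 4.63 on this array and -0.14 to 0.24 on the other 4 of its group. How far this RNA set the values of Dsg3, Col17a1, Trp63 and the other members was not tested beyond leaving the array out.

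**Figure D4:**
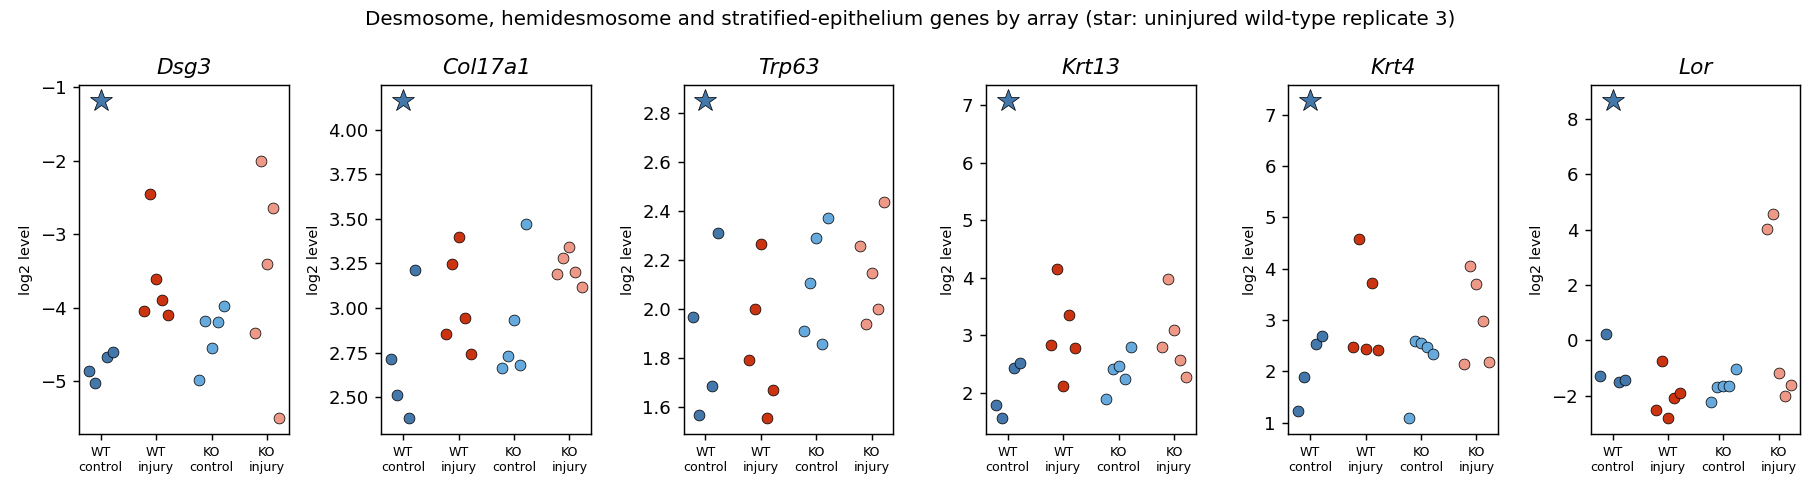
Log2 level (y axis) of Dsg3, Col17a1 and Trp63 beside the squamous genes Krt13, Krt4 and Lor on every array by group (x axis), with uninjured wild-type replicate 3 drawn as a star. This array is the highest of the 20 in each of the 6 genes.

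Genotype made no called difference in the 9 genes before or after injury. In uninjured tracheas 4 of the 9 were higher in Myd88KO, against 56.7% of all tested probes, from -0.31 for Dsg3 to 0.20 for Ngfr, with a median of -0.08 against 0.04 over all tested probes. Without uninjured wild-type replicate 3, Dsg3 stood at 0.41 and 8 of the 9 genes were higher, all but Pdpn (-0.26), and none was called. The 56.7% holds for all arrays, and no share over all probes is given for the fit without that array. With all arrays the 95% intervals lay within ±1 for 8 of the 9. In injured tracheas 5 of the 9 were higher in Myd88KO, against 45.3% of all tested probes. Trp63 was higher by 0.30 (-0.14 to 0.74, adjusted p = 0.588, limma), with 3 of 5 slides higher. Pdpn was lower in injured Myd88KO than in injured wild-type tracheas, with a difference of -0.68 (SE 0.32, 95% interval -1.34 to -0.02, adjusted p = 0.383, limma), lower on 4 of 5 slides, and the second Pdpn probe gave -0.80 (adjusted p = 0.277). Without injured Myd88KO replicate 5, 7 of the 9 genes were higher in injured Myd88KO, from -0.54 for Pdpn (95% interval -1.23 to 0.15) to 0.52 for Lama3, and none was called (lowest adjusted p 0.496, limma). The 45.3% holds for all arrays, and no such share is given without replicate 5.

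The difference between both injury responses was tested as an interaction and called for none of the 18 probes. It was above 0 for 5 of the 9 genes, against 41.3% of all tested probes, and ranged from -0.41 for Pdpn (95% interval -1.34 to 0.53) to 0.41 for Lama3 (-0.67 to 1.48), and the lowest adjusted p was 0.509 (limma), for the dim second Lama3 probe. Without injured Myd88KO replicate 5 it was above 0 for 6 of the 9 genes, from -0.27 for Pdpn to 0.83 for Dsg3, and none was called. The 41.3% holds for all arrays, and no such share is given without replicate 5. The injured Myd88KO arrays were unlike each other also without that array. Replicate 1, like replicate 5 of the second scan day, held a mean secretory level of 7.42 against 4.76, 6.16 and 4.87 on the first day and the highest ciliated level of the 20 arrays (3.58), while its proliferation level (0.32) lay above all uninjured Myd88KO arrays. Over replicates 1 and 5 the injury difference in Myd88KO was 0.50 for Lama3, 0.05 for Itga6 and -0.28 for Pdpn, against 1.15, 0.74 and 0.65 on the first scan day. Replicate 5 also had the lowest share of spots above background (57.5%) and the most outlier spots (192 against a median of 98). The part of scan day, array quality and these marker levels in the values was not tested, and in this group they cannot be told apart.

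Within groups most pairs of the 9 genes varied together. After the mean of each group was removed, 34 of the 36 pairs correlated positively over the 20 arrays, with a median Pearson's r of 0.62. With slide means also removed 35 were positive and the median was 0.47. No count over pairs of other tested probes is given beside these or the counts below. Whether the 9 genes differ from other genes in this was not tested. The 36 relations were tested by permuting arrays within groups 100000 times, two-sided, and 20 had a Benjamini-Hochberg adjusted p under 0.05 by Pearson's r and 20 by Spearman's rho. That permutation leaves the slides out. In a test added after the values were seen, with slide in the permutation, 7 pairs had an adjusted p under 0.05 by Pearson's r (100000 permutations, two-sided), of which 6 were among the 20. These 6 joined Itga6 to Lama3, Ngfr to Itgb4, Trp63 to Col17a1, Itgb4 to Lamb3, Itgb4 to Col17a1 and Col17a1 to Dsg3, and the seventh was Pdpn with Itga6 (r = 0.71 with slide removed, adjusted permutation p = 0.0350). Itga6 and Lama3 had r = 0.89 (rho = 0.87, adjusted permutation p = 0.000840 and 0.00108), and r was 0.83 without the 2 arrays farthest from the Itga6 median and 0.76 with slide removed. Ngfr and Itgb4 had r = 0.87 (rho = 0.88, adjusted permutation p = 0.000360 and 0.000600), with 0.86 and 0.78 in those checks.

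Trp63 was most correlated with Col17a1 (r = 0.87, rho = 0.75, adjusted permutation p = 0.00137 and 0.00506), with r = 0.75 without the 2 arrays farthest from the Trp63 median and 0.81 with slide removed. With Itga6 its r was 0.02, with Lama3 0.07 and with Pdpn -0.22, and with slide removed these were 0.01, 0.10 and 0.00 (-0.000785). Lama3 and Lamb3 had r = 0.83 (rho = 0.84, adjusted permutation p = 0.000360 for both), and this relation rested on the slides, since r was 0.13 once slide means were removed (adjusted permutation p = 0.733). Itga6 and Lamb3 dropped likewise from 0.73 to 0.21, Ngfr and Lama3 from 0.72 to 0.31, and Itgb4 and Lama3 from 0.62 to 0.33. Itgb4 and Lamb3 kept r = 0.80 after slides were removed, and Col17a1 and Dsg3 had 0.84, a value that holds the array with high squamous genes. In the check without the 2 farthest arrays, with group means removed, r of Col17a1 and Dsg3 fell from 0.70 to 0.43. Pdpn and Itga6 fell from 0.64 to 0.40. Itgb4 went from 0.78 to 0.71 with Lamb3 and from 0.62 to 0.60 with Col17a1.

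**Figure D5:**
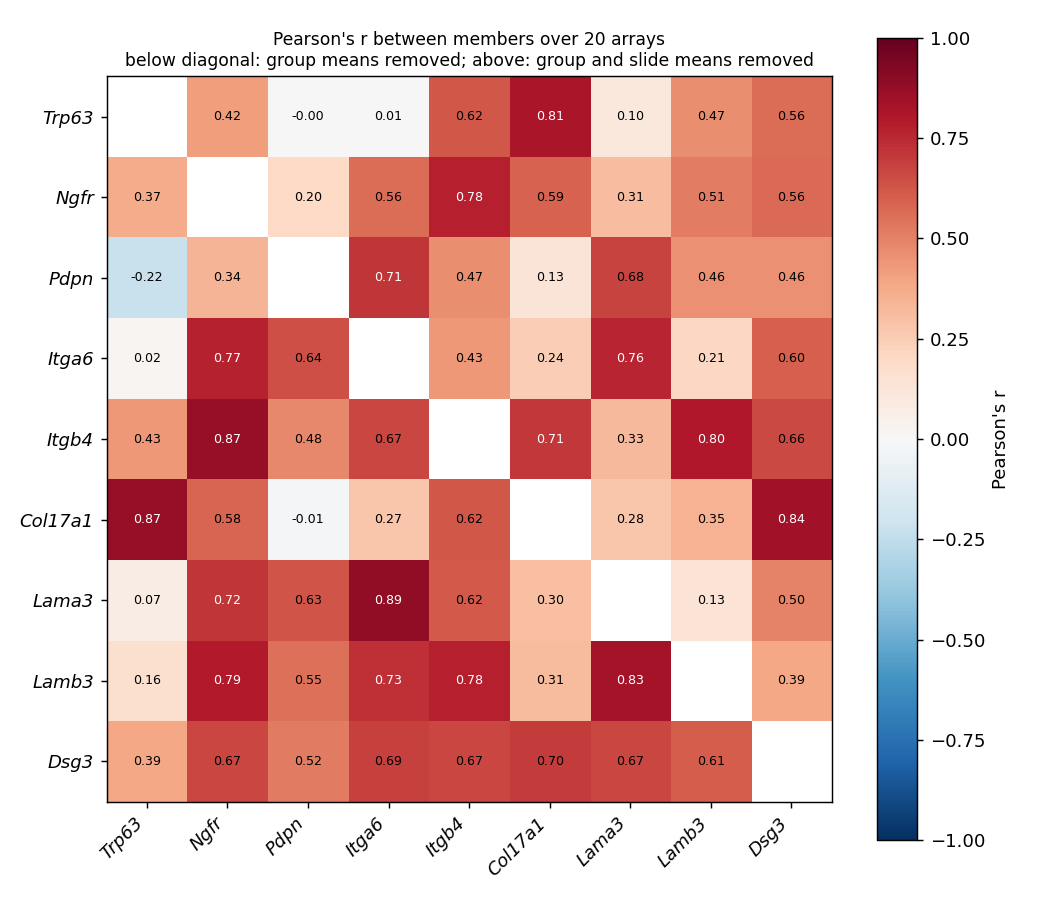
Pearson's r between the brightest probes of the 9 genes over 20 arrays, with group means removed (below the diagonal) and with group and slide means removed (above it). Trp63 is near 0 against Itga6 and Lama3 on both sides of the diagonal, and the square for Lama3 and Lamb3 drops from 0.83 to 0.13.

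Tested probes with a value on all 20 arrays were searched for likeness to the members. The gene whose 20 values followed the mean of the 9 standardised members most closely was Krt5, the basal keratin (r = 0.92, rho = 0.93), with Fam83h, Dsc2, Def6, Nbeal2, Ecm1, Pld2, Gna15 and Sh3d19 among the next (r from 0.89 to 0.91). Krt5 is not a member but is itself a known basal cell marker. Its levels ran from 5.54 to 7.60, with the highest on the array with high squamous genes, and its r without that array is not given. Among the nearest genes to single members were Chmp4c and Garem1 for Trp63 (r = 0.84 and 0.81), Sox15, Trim29 and Zfp185 for Col17a1 (0.89, 0.88 and 0.88) and Dsc2, Acsbg1 and Aim1 for Dsg3 (0.95, 0.93 and 0.92). Itga6 was followed by Stx1a and Fn1 (0.93 and 0.92), Lama3 by Tdg, Vps4b and Itga6 (0.91, 0.91 and 0.90), and Lamb3 by Spint1, Xpo5 and Arhgap1 (0.95, 0.95 and 0.95). Ngfr was followed by Cdc42ep5, Itgb4 and a transcript named only by its identifier (0.91, 0.90 and 0.89), Itgb4 by Fam83h, Cdc42ep5 and Ptpn14 (0.92, 0.91 and 0.91), and Pdpn by Mob3a, Myadm and Emilin1 (0.92, 0.92 and 0.91). These are among the highest of up to 26064 correlations and are given as descriptions, over arrays that share slides.

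The promoters of 4 members are shown as examples: Ngfr and Pdpn of the identity genes, Col17a1 of the hemidesmosome and Lamb3 of the laminin. No promoter was available for Trp63, Itga6 and Itgb4. The sequences were not tested against any pattern in the arrays. Each sequence holds the 250 bases before the annotated start in RefSeq on build GRCm38.p6, 5′ to 3′ on the gene's strand, and for Lamb3 the more upstream of 2 starts. Capitals mark matches on either strand to TATAAA, the TATA box, or to GGGCGG, the core of the Sp1 site.
Ngfr (chr11:95587699-95587948, - strand): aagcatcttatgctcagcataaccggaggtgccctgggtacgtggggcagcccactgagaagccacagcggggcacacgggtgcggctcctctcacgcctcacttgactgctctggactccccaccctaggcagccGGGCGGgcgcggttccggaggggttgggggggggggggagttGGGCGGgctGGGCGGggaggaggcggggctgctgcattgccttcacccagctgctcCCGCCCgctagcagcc
Pdpn (chr4:143299565-143299814, - strand): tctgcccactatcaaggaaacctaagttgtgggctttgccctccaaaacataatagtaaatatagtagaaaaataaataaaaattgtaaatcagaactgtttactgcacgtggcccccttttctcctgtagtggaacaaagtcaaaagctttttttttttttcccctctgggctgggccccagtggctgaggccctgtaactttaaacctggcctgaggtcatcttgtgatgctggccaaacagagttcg
Col17a1 (chr19:47692043-47692292, - strand): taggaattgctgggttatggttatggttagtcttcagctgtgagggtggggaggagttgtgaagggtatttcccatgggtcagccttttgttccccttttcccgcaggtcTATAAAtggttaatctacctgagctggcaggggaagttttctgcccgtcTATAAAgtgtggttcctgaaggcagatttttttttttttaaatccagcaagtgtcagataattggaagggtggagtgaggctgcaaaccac
Lamb3 (chr1:193301744-193301993, + strand): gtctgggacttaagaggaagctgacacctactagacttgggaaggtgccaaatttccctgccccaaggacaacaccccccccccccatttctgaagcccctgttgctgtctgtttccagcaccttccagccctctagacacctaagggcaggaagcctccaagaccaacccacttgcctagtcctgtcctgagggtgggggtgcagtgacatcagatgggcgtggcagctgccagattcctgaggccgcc
Ngfr held 4 Sp1 matches and a GC content of 70.4%, and Col17a1 held 2 TATA matches and 46.0% GC. Pdpn (43.2% GC) and Lamb3 (58.8% GC) held neither. No match to TGANTCA (AP-1), to the NF-kB motif (GGGA, any base, then TTTCC) or to the p53-family motif (CATG, 6 bases of any kind, then CATG), searched on both strands, stood in any of the 4 windows. Of 32851 promoters of this length 32.7% held an Sp1 match, 12.4% a TATA match, 6.75% an AP-1 match, 0.356% an NF-kB match and 0.490% a p53-family match, and the median GC content was 52.4%. The motifs do not overlap in these windows, and a match or its absence says only which letters stand there.

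Genes around the members were read from lists of hemidesmosome, laminin, basement membrane, desmosome, basal cell, neurotrophin, podoplanin-partner and p53-family genes, in all 56 genes of which 48 were tested. Of the 48, 1 was called higher for injury in wild-type, where 5.26% of all tested probes were called in either direction. None was called in the other comparisons, where the share over all probes was 0.384% or less. The median difference with injury was 0.20 in wild-type and 0.06 in Myd88KO. In these comparisons 32 and 28 of the 48 were higher, against 50% and 42.3% of all tested probes. The called gene was Msn, moesin, which links podoplanin to actin. It was higher after injury in wild-type by 1.05 (SE 0.24, adjusted p = 0.00777, limma), from -1.31 to -0.97 uninjured and -0.52 to 0.33 injured, and it differed by 0.22 in Myd88KO (adjusted p = 0.668). A second Msn probe (1.26, adjusted p = 0.00889) and the less bright probe of Trp53 (0.72, adjusted p = 0.00669) were called in the same comparison, while the brightest Trp53 probe gave -0.03. Of the other partners of podoplanin, Cd44 differed by 1.03 (adjusted p = 0.0146, limma) and the platelet receptor Clec1b by 1.91 (adjusted p = 0.0127), both short of 0.01. With Msn these were the 3 of 5 listed partners that were higher after injury in wild-type, while Ezr and Rdx were not higher. In Myd88KO all 5 were higher after injury, with a median of 0.22, and none was called.

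Among the 7 tested laminin subunits outside the members 6 were higher after injury in wild-type, with a median of 0.46, and 3 in Myd88KO, with a median of -0.01, and none was called. Over all tested probes 50% were higher in wild-type and 42.3% in Myd88KO, for this and the counts below. The 5 basement membrane matrix genes had medians of 0.70 and -0.03. Their mean levels in injured Myd88KO replicates 1 to 5 were 0.92, 2.22, 1.91, 2.42 and 1.06. Uninjured Myd88KO arrays held 1.49 to 1.88 and injured wild-type arrays 2.00 to 2.35. Replicates 1 and 5 thus lay below the uninjured Myd88KO range and the other injured arrays above it. The differences of Msn and of these lists are given with all arrays only. Of the 8 other basal cell genes 7 were higher in each genotype, with medians of 0.30 and 0.47 and none called. Krt14, a keratin of activated basal cells, differed by 1.14 in wild-type (adjusted p = 0.196) and 0.73 in Myd88KO (adjusted p = 0.5003, limma). The 8 tested desmosome genes had medians of 0.03 and 0.27. Of the 6 tested neurotrophins and co-receptors of Ngfr, 1 was higher in wild-type and none in Myd88KO, with medians of -0.20 and -0.71, and Ntf3 differed by -0.81 and -0.93 (adjusted p = 0.0212 and 0.0296, limma), again with none called.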

How the data were processed

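RNA of 20 whole tracheas was hybridised to one-colour arrays. The deposited files hold 1 processed intensity per spot (gProcessedSignal), which the authors made with Agilent Feature Extraction (submitters' processing notes and file headers). A deposited table of the same arrays in linear intensity served as an alternative. Control and outlier spots were left out, spots of a probe averaged, and log2 values set to 0 at each array's 75th percentile. Probes well above background on at least 10 of 20 arrays were tested with limma 3.58.1 (R 4.3.3) across 4 groups, with Benjamini-Hochberg adjustment over all tested probes and a threshold of 0.01. The brightest tested probe stood for a gene. Precision is limited by 5 arrays per group. In simulated data with 26064 probes and no slide effect, 50 random probes were changed at each size in injured wild-type only. There 38% of log2 changes of 1 and 88% of changes of 2 were recovered. Gene names were updated through RefSeq where an accession (22951 probes) or a current or former symbol (6659 and 3109) matched.

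The members, the lists and the tests were chosen with earlier results of these data known. All members were named; list genes by counts, and by value where called or where a result turns on them; Krt14, Ntf3, Cd44, Clec1b, Plec and Dst were named after their values were seen. For each member the 3 nearest genes, and for their mean the 10 nearest, by Pearson's r were named, except some that are not reported here.

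Replicate numbers are those of the slides (file headers). Same-numbered arrays deviated together unevenly (r from -0.26 to 0.48 over all probes, and 10 of 20 arrays correlated best with their own number), so the slide was an alternative block. The methods name 5 biological replicates per group. Alternatives were quantile and normexp normalisation, other filters, the deposited table, slide and scan-day blocks, fits on the compared groups alone, array weights, the methods' one-way test, a threshold of 0.05 and leaving out each array. Promoters came from RefSeq (GRCm38.p6).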

Additional observations from a re-analysis of the deposited data

Results flagged for a closer look

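Of 72 sets of 5 arrays (18 tested probes in 4 groups), 3 held an array far from the other 4 by Dixon's criterion, where chance gives about 1 in 20. Dsg3 in uninjured wild-type replicate 3 read -1.19 against -5.02 to -4.60 in the other arrays of its group. The dimmer Col17a1 probe on the same array read 1.32 against -0.66 to -0.24. The second Ngfr probe in uninjured wild-type replicate 5 read -2.003 against -3.20 to -3.06, and the bright Ngfr probe on that array (1.07) lay within the range of its group.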

How the results depend on the processing

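The count of called member probes was 0 in each of the 5 comparisons and stayed 0 under each of the 31 alternative settings, leaving out each of the 20 arrays included (range 0 to 0). Of 2644 recomputed differences 116 changed sign, the largest from a main difference of 0.45 (Dsg3, injury in wild-type, -0.08 with normexp). The other sign changes of brightest probes above 0.2 in size were for Pdpn in Myd88KO (-0.02 without injured Myd88KO replicate 4) and for Dsg3 between uninjured genotypes (0.10 with array weights, 0.41 without uninjured wild-type replicate 3) and between responses (-0.05 without injured Myd88KO replicate 2, -0.37 without uninjured wild-type replicate 3). The lowest adjusted p was 0.0136, for Lama3 in Myd88KO with the scan day as a block, followed by 0.0155 with array weights.

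With the slide (replicate number) as a block, 0 of 18 probes were called in each of the 5 comparisons, and Lama3 in injured Myd88KO reached 0.0230. In the added comparison of injury over both genotypes the same block moved Lama3 from 0.0714 to 0.00371. Without injured Myd88KO replicate 5 the Lama3 difference in Myd88KO was 1.13 (adjusted p = 0.0471). The causes were not tested. With 5 arrays per group, changes of a log2 size of 1 were recovered in 38% of simulated cases, so smaller changes of the members were mostly not detectable, and the dim probes of Dsg3, Trp63 and Lama3 are read close to background.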
